A study of Mus musculus with 4 samples.

Results

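The 8 genes of the suppressor of cytokine signalling (SOCS) family, Socs1 to Socs7 and Cish, were examined together with Stat3, which encodes the transcription factor STAT3. The 9 genes were chosen by symbol, and each matched 1 of the 55536 genes in the deposited tables. They were measured by polyA RNA-seq in 4 libraries of C57BL/6J mouse bone-marrow-derived macrophages (BMDM), which are macrophages grown in culture from bone marrow precursors. The libraries form 1 group. Per the sample descriptions, the cells received 100 ng/mL of Lipid A, the TLR4-binding part of lipopolysaccharide, for 12 h. After a washout of 12 h they received the same dose for 60 min. The source names call the agent lipoprotein A and mention no washout, so the labels disagree on both. No allele or transgene is named, and age and sex were not collected. Untreated cells and cells exposed once are not analysed here, so every value is a level after both exposures and none is a response. The labels number the libraries as biological replicates but give the same donor record for all of them. They do not say that the libraries came from different animals, so the spread between them may be technical.

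SOCS proteins shut down signalling by cytokine receptors. A cytokine joins its receptor chains, the JAK kinases bound to them phosphorylate STAT proteins, and STAT dimers enter the nucleus and switch on genes that include the SOCS genes themselves. Each SOCS protein has an SH2 domain that finds phosphorylated receptors or kinases and a SOCS box that recruits a ubiquitin ligase through elongins B and C. SOCS1 and SOCS3 can also block JAK activity directly. In macrophages STAT3 carries the signal of interleukin 10 (IL-10), which restrains inflammatory genes, and SOCS3 limits signalling by the IL-6 receptor through gp130.

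The expected counts on genes ran from 23167140 to 41453162 per library. All 10 macrophage markers reached 1 TPM in each library, with summed levels from 17141 to 20130 TPM. TPM is transcript abundance scaled for transcript length and library size. Of 33 markers of other cell types 3 reached that level. The neutrophil markers summed to 122, 12.4, 96.0 and 11.5 TPM in replicates 1 to 4, with S100a9 the highest at a mean of 36.2 TPM and Ly6g, a defining neutrophil marker, at 0 counts. T cell, B cell and NK cell markers summed to at most 1.11 TPM. In bulk RNA a difference in the number of expressing cells and a difference in RNA per cell cannot be told apart.

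Socs3 was by far the most abundant member, Stat3 came next, and the rest of the family lay near or below the median of tested genes, 13.9 TPM. Socs3 (ENSMUSG00000053113.3; mm10, chromosome 11, 117966079 to 117970047, minus strand) had 430, 473, 292 and 569 TPM in replicates 1 to 4. The mean was 441 ± 115 TPM (SD, n = 4), which lay at percentile 96.8 of the 10407 genes with at least 1 TPM in each library. Replicate 4 was highest and replicate 3 lowest, with 1.95 times between them. Socs3 supplied 90.5%, 91.4%, 86.6% and 93.8% of the summed TPM of the 8 SOCS genes, so that in each library all the other family members together made up the small remainder. Its expected counts ran from 16765 to 31977, so counting error is small beside the spread.

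Stat3 (ENSMUSG00000004040.16; chromosome 11, 100885098 to 100939540, minus strand) had 93.4, 97.8, 74.7 and 90.2 TPM, a mean of 89.0 ± 10.1 TPM (SD, n = 4) at percentile 85.8. Replicate 3 held the lowest value for Stat3 as it did for Socs3. Within each library Socs3 exceeded Stat3, by 4.61, 4.83, 3.91 and 6.31 times. The last 72 bases of Stat3 overlap the 3′ end of Stat5a on the opposite strand. Stat5a had 6.89 to 10.5 TPM, and whether the counting used strand is not given in the sources used here.

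**Figure D1:**
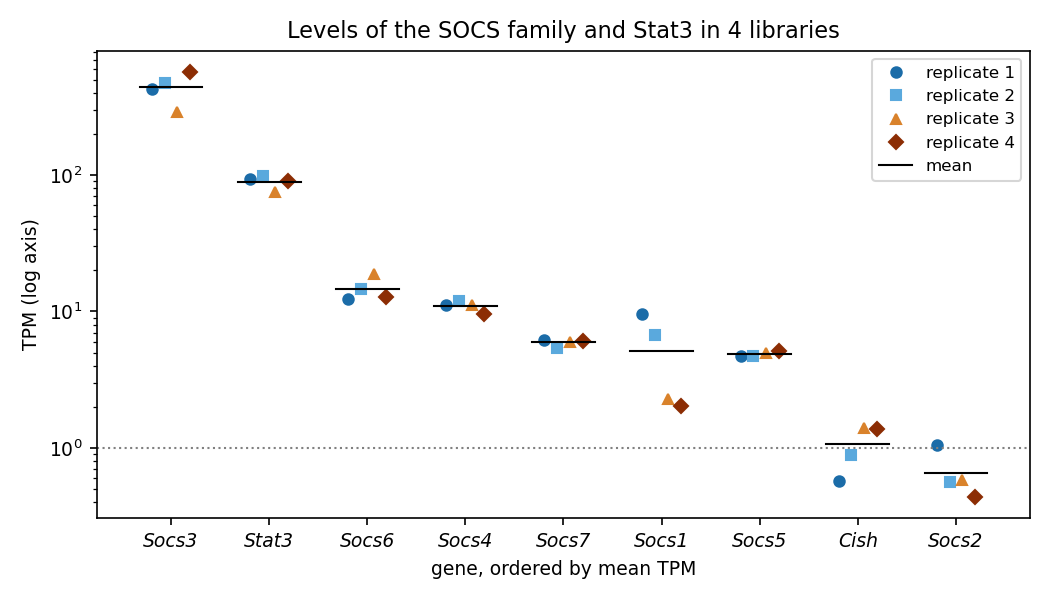
TPM of each gene (log axis) in the 4 libraries, with genes ordered by mean TPM and a horizontal line at each mean; the dotted line marks 1 TPM. Socs3 lies between 292 and 569 TPM in all libraries, Socs1 falls into a higher and a lower pair of libraries, and Cish and Socs2 straddle 1 TPM.

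The 4 family members with long amino-terminal regions, Socs4 to Socs7, were present at low levels in each library. SOCS6 and SOCS7 have been linked to insulin receptor signalling and SOCS4 and SOCS5 to the EGF receptor. Socs6 (ENSMUSG00000056153.15; chromosome 18, 88665224 to 88927481, minus strand) had 12.3, 14.5, 18.8 and 12.8 TPM, a mean of 14.6 ± 2.94 TPM (SD, n = 4). Replicate 3, the library with the least Socs3 and Stat3, had the most Socs6. The 3 processed pseudogenes that lie within Socs6 were listed at 0 TPM in each library.

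Socs4 (ENSMUSG00000048379.9; chromosome 14, 47276931 to 47296102, plus strand) had 11.1, 11.9, 11.2 and 9.59 TPM, a mean of 10.9 ± 0.967 TPM (SD, n = 4). Socs7 (ENSMUSG00000038485.5; chromosome 11, 97362551 to 97398542, plus strand) had 6.21, 5.42, 5.98 and 6.10 TPM, a mean of 5.93 ± 0.351 TPM (SD, n = 4). Socs5 (ENSMUSG00000037104.9; chromosome 17, 87107679 to 87137839, plus strand) had 4.71, 4.70, 4.93 and 5.10 TPM, a mean of 4.86 ± 0.192 TPM (SD, n = 4). In these TPM values the coefficients of variation were 3.95% for Socs5, 5.92% for Socs7 and 8.84% for Socs4, against 20.2% for Socs6 and 26.1% for Socs3. The order depended on the table, since the second quantification gave 3.96 ± 0.841 TPM for Socs5 and 5.17 ± 1.13 TPM for Socs7 (SD, n = 4), a wider relative spread than its 75.1 ± 9.01 TPM for Stat3.

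Socs1, which encodes an inhibitor of the JAK kinases that act downstream of interferon receptors, did not hold 1 level across the libraries. Socs1 (ENSMUSG00000038037.5; chromosome 16, 10782240 to 10785536, minus strand) had 9.52, 6.74, 2.28 and 2.04 TPM in replicates 1 to 4. Replicates 1 and 2 were high, replicates 3 and 4 were low, and the pairs did not overlap. The mean of 5.14 ± 3.63 TPM (SD, n = 4) therefore describes no single library. The values rest on 431, 265, 170 and 127 expected counts. The excess of Socs3 over Socs1 ran from 45.2 times in replicate 1 to 279 times in replicate 4.

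Cish and Socs2, which encode feedback inhibitors known as STAT5 targets in growth hormone and cytokine signalling, were at the edge of detection. Cish (ENSMUSG00000032578.7; chromosome 9, 107296026 to 107302784, plus strand) had 0.570, 0.890, 1.40 and 1.38 TPM, a mean of 1.06 ± 0.403 TPM (SD, n = 4) on 30 to 96 expected counts. Socs2 (ENSMUSG00000020027.18; chromosome 10, 95385362 to 95417180, minus strand) had 1.05, 0.560, 0.580 and 0.440 TPM, a mean of 0.657 ± 0.269 TPM (SD, n = 4) on 18 to 23 expected counts. Cish reached 1 TPM in 2 libraries and Socs2 in 1, so these 2 genes are the members that did not count as detected in each library. For Cish, 2 genes annotated within or across it on the opposite strand, Gm17040 and Gm17041, had at most 0.27 TPM.

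The order of levels was the same in each library at the top and open in the middle and at the bottom. Differences of log2(TPM + 0.1) were taken within each library for the 8 pairs of neighbours and tested by sign flips over the libraries, an exact permutation test (two-sided) that with 4 libraries reaches 0.125 at the lowest. No pair could therefore pass 0.05. The pairs and their direction came from the mean TPM of these same libraries, so a shared sign was partly set in advance. Socs3 exceeded Stat3 by 2.27 ± 0.29 log2 units (SD, n = 4) and Stat3 exceeded Socs6 by 2.61 ± 0.42, both in 4 of 4 libraries and both with an exact p of 0.125 (0.200 adjusted over the 8 pairs by Benjamini-Hochberg).

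Socs6 over Socs4 (0.40 ± 0.25), Socs4 over Socs7 (0.87 ± 0.20) and Socs5 over Cish (2.17 ± 0.51) also held in 4 of 4 libraries, by more than their SD. The place of Socs1 did not hold. Socs7 exceeded Socs1 by 0.49 ± 1.11 log2 units in 2 of 4 libraries (exact permutation p 0.500, adjusted 0.571). Socs1 exceeded Socs5 in 2 of 4 libraries, with a mean difference of -0.21 ± 1.14 (exact permutation p 0.750, adjusted 0.750), so the log2 scale puts Socs5 ahead where the mean TPM puts Socs1 ahead. Cish over Socs2 (0.60 ± 0.99, in 3 of 4 libraries, exact permutation p 0.375, adjusted 0.500) also stayed within its spread.

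**Figure D2:**
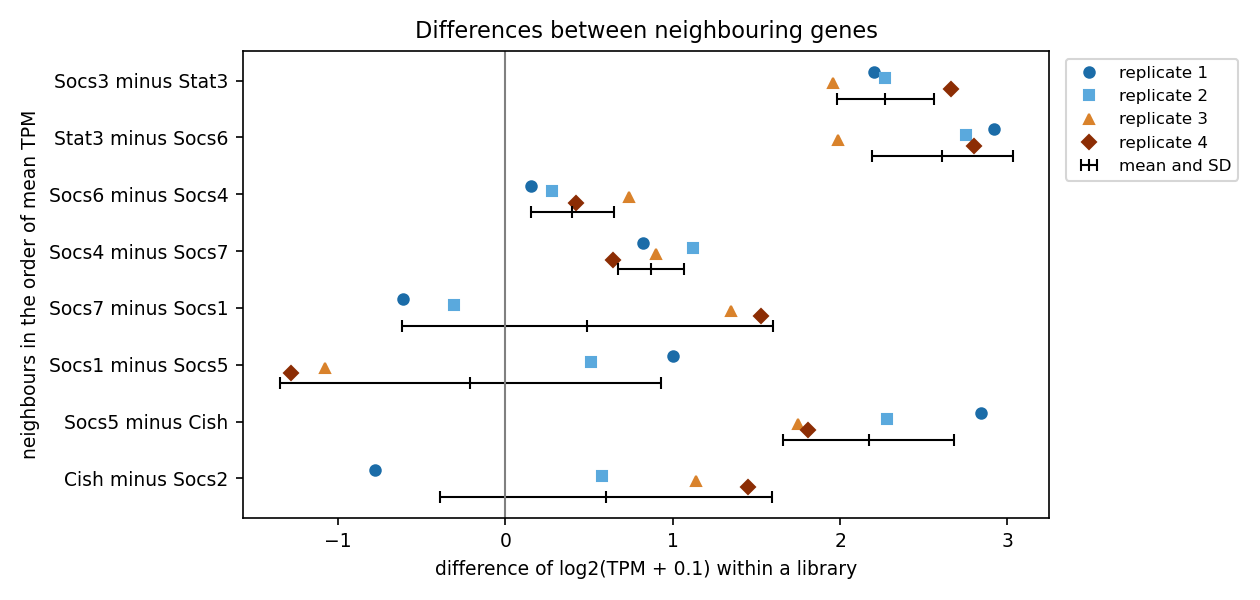
Difference of log2(TPM + 0.1) between neighbouring genes within each library (points), with the mean and SD below each row of points. All points lie right of 0 for 5 of the 8 pairs, while both pairs with Socs1 have 2 libraries on each side of 0.

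Of the 9 genes, Socs1 alone was called variable between libraries. All 9 passed edgeR's filter on low counts, and each gene's deviance over the 4 libraries was set against the spread of genes of like abundance. Among all genes 305 of 11679 (2.61%) were called at an adjusted p of at most 0.05, which is the background for 1 of 9 members. Socs1 had 18.1, 11.1, 3.85 and 3.56 CPM (counts scaled to the library size after TMM normalisation), with an edgeR adjusted p of 0.000270, and ranked 85 by p among the tested genes. The SD of its log2 CPM was 1.15, against 0.0835 for Socs5 and 0.429 for Socs3. The call was narrowly lost without replicate 1, although replicate 2 still stood above replicates 3 and 4. Without replicate 1 the edgeR adjusted p was 0.0505 and no member was called, while leaving out each of the other libraries kept the call.

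Socs3, with 741, 702, 445 and 897 CPM, had an unadjusted p of 0.132 in that edgeR fit, and Socs6, with 30.1, 33.0, 48.0 and 29.7 CPM, one of 0.188. The remaining 6 members had unadjusted p-values of at least 0.448, and every member but Socs1 had an adjusted p of 1.00. The spread of Cish, 1.26 to 2.69 CPM, was likewise not detectable beyond that of genes with as few counts.

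**Figure D3:**
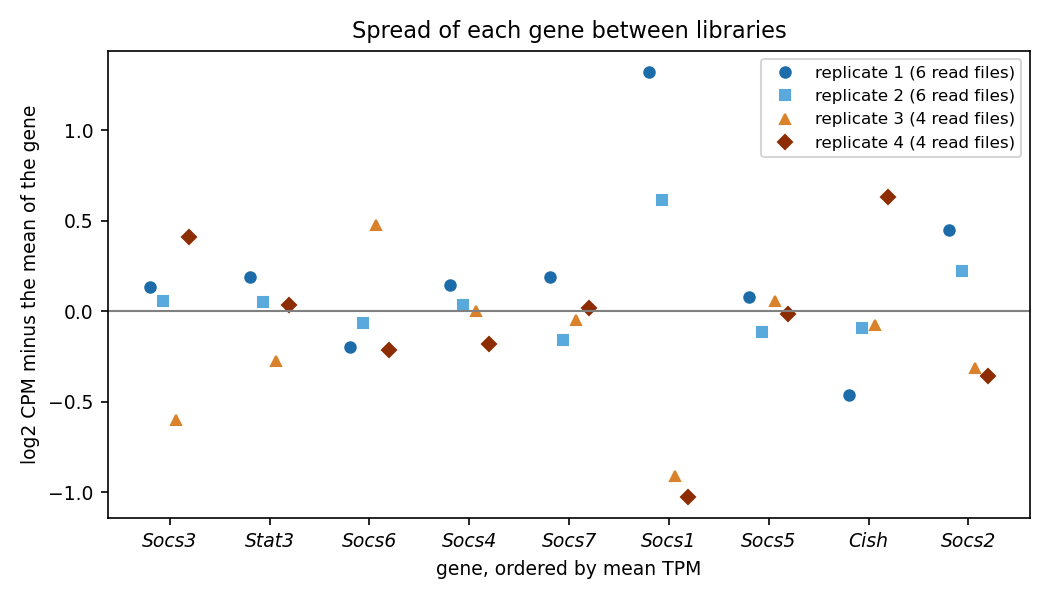
Log2 CPM of each gene in each library minus the mean of that gene, with genes ordered by mean TPM. Socs1 has 2 libraries well above and 2 well below its mean, and Socs5 has all 4 within a narrow band.

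The 2 libraries with more Socs1 are also the 2 for which the deposited records list 6 read files, and the 2 with less Socs1 are listed with 4. Mean Socs1 was 8.13 TPM in the former pair and 2.16 TPM in the latter. The edgeR quasi-likelihood log2 fold change was -1.98 with a standard error of 0.30 and an unadjusted p of 0.000535, rank 15 among all genes, but its adjusted p was 0.414. This test called 0 of 12667 genes (0%), with 897 genes at an unadjusted p under 0.05 and a smallest adjusted p of 0.168. DESeq2 called 103 genes (0.813%), and of the members it called Socs1, with a log2 fold change of -2.0 and an adjusted p of 2.54e-05. With no filter on low counts edgeR's adjusted p for Socs1 was 0.0142.

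The other 8 members were called by neither tool. The CPM of the 2 pairs of libraries did not overlap for 5 of 9 members (Stat3, Socs4, Socs1, Cish and Socs2), against 4887 of 12667 genes (38.6%). For Cish the log2 fold change was 0.58 with a standard error of 0.41, and for Stat3 it was -0.23 with a standard error of 0.20. The pair with less Socs1 also had larger mitochondrial shares of TPM (4.77% and 3.99%, against 1.94% and 2.79%) and more counts on genes (41453162 and 34946569, against 26613690 and 23167140). Control entries took 0.0790% and 0.0848% of counts there, against 0.139% and 0.293%. A ribosomal RNA entry took 7.14% of TPM in replicate 1, without which the Socs1 call was lost, and 1.29% to 2.73% in the others. The part of these in the Socs1 difference was not tested, and with 2 libraries on each side they cannot be told apart from it.

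RefSeq (GRCm38.p6) gave a promoter, 250 bases before to 50 after a start site, for 5 of the 9 genes. These were Socs1, Socs3, Socs4, Cish and Stat3. Both strands were searched for TTCNNNGAA, the letters that STAT dimers bind, for its narrower form TTCCNGGAA, and for GAAANNGAA, the core of the interferon-stimulated response element. The bases before the Socs1 and Socs3 start sites are shown because these genes have the largest spread and the highest level, with matches in capitals.
Socs1, chr16:10785537-10785786, minus strand: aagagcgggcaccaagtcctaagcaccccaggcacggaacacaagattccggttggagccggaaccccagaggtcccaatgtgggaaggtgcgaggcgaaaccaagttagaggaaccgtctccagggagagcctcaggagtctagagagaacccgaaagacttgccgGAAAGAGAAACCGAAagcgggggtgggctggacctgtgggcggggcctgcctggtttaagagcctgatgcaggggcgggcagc
Socs3, chr11:117969367-117969616, minus strand: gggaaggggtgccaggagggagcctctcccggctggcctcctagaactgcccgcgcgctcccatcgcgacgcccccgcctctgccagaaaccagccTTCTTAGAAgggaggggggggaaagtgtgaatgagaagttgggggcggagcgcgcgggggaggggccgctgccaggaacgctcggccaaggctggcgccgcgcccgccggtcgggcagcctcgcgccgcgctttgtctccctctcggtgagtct

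The Socs1 window holds GAAANNGAA at 2 overlapping places, beginning at -83 and -77 from the start site, and no TTCNNNGAA. Of 32851 RefSeq promoters of the same length 8.56% hold GAAANNGAA at least once and 0.624% at 2 or more places. The Socs3 window holds TTCNNNGAA once, beginning at -154 from the RefSeq start site, and 8.30% of all promoters hold it at least once. That start site lies 180 bases upstream of the 5′ end of Socs3-201, the GENCODE transcript that carried nearly all of the Socs3 signal, so the bases next to that 5′ end are outside the window. In the Cish window TTCNNNGAA occurs at 2 places, and 0.457% of promoters hold it at 2 or more. The first also has the narrower form TTCCNGGAA, as in 1.15%. The 20 bases that hold both begin at the RefSeq start site, which lies 633 bases inside the first exon of Cish-201.
Cish, chr9:107296659-107296678, plus strand: TTCCTGGAAagTTCTTGGAA
The Stat3 and Socs4 windows held none of the 3 sets of letters. The windows lie at different places relative to the main transcripts, so their matches cannot be ranked against the levels. Those levels were 1.06 TPM for Cish, 441 TPM for Socs3 and 89.0 TPM for Stat3. Whether the letters bear on the levels was not tested. The Socs3 window lies outside Socs3-201, and the Cish window lies wholly in exons of Cish-201.

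Most Stat3 transcript came from the form that encodes the full-length protein. Stat3-203, with 770 codons, held 88.0%, 85.2%, 89.2% and 87.1% of Stat3 TPM in replicates 1 to 4, a mean of 87.4% ± 1.70 (SD, n = 4). Stat3-202, with 722 codons, encodes the shorter STAT3 beta, which lacks the carboxy-terminal transactivation region, and held 3.24%, 4.60%, 4.03% and 4.10%, a mean of 3.99% ± 0.562 (SD, n = 4). Stat3-201, with 769 codons, held 4.50%, 6.35%, 3.64% and 5.80%, a mean of 5.07% ± 1.23 (SD, n = 4). The shares were even across the libraries, also in replicate 3, where the Stat3 level was lowest.

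The 2 lesser forms differ from Stat3-203 in their coding part by bases skipped at a splice junction. Stat3-202 lacks 50 coding bases (chromosome 11, 100889541 to 100889590, minus strand), after which its reading frame changes. The junctions are shown with 30 bases on each side and the skipped bases in capitals, from the GENCODE transcripts.
Stat3-203 at the 50-base difference: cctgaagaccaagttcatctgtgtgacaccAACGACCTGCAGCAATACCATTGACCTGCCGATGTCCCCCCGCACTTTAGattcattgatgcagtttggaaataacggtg
Stat3-202 at the same place: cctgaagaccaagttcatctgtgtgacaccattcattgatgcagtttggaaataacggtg
Stat3-201 lacks 3 coding bases (100893074 to 100893076) and keeps the reading frame.
Stat3-203 at the 3-base difference: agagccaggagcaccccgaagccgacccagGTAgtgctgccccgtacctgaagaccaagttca
Stat3-201 at the same place: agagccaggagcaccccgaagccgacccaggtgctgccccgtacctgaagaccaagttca
The second deposited quantification, made directly from the reads, gave 83.9% for Stat3-203, 8.46% for Stat3-201 and 1.34% for Stat3-202. By mean share Stat3-201 came before Stat3-202 in both quantifications, but in the first the order was the opposite in replicate 3, so the 2 lesser forms were not separated there.

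Transcripts of a gene share reads, so all these shares are estimates. In the first quantification Socs3 came as 1 transcript, and the main transcripts of Socs1 and of Socs6 have coding parts of 1 length per gene. Socs3-201, with 225 codons, held 100% ± 0.0574 of Socs3 TPM (SD, n = 4). For Socs1 the form Socs1-201 held 90.0% ± 2.88 and Socs1-202 held 9.96% ± 2.88 (SD, n = 4), and both have 212 codons. Socs1-201 held 92.0%, 88.3%, 92.9% and 86.9% in replicates 1 to 4, so its share did not separate the pair of libraries with more Socs1 from the pair with less. In the second quantification it did, with 89.3% and 82.6% in replicates 1 and 2 against 78.3% and 72.8% in replicates 3 and 4. In the first quantification Socs6 was divided among Socs6-203 (39.1% ± 3.48), Socs6-201 (30.8% ± 7.30) and Socs6-202 (25.0% ± 7.67; SD, n = 4), all with 533 codons. The second quantification gave them 46.3%, 21.8% and 13.6%, and gave 13.1% ± 11.5 (SD, n = 4) to Socs6-208, annotated with 65 codons. There Socs6-208 held 21.8%, 23.7%, 0% and 6.91% in replicates 1 to 4.

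Socs5-201, with 536 codons, held 79.6% ± 4.55 of Socs5, and Socs5-203, annotated with 203 codons, held 18.5% ± 4.98 (SD, n = 4). The assignment was unstable for the 2 rarest genes. Cish-201 held 80.5%, 73.5%, 31.2% and 50.8% of Cish, and Socs2-201 held 46.9%, 93.0%, 53.9% and 67.3% of Socs2, on the few counts given above. In replicate 3 a further 41.3% of Cish went to Cish-203, annotated with 102 codons. Cish CPM, which takes no account of transcript length, was 1.63 in replicate 2 and 1.65 in replicate 3, where its TPM was 0.890 and 1.40.

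**Figure D4:**
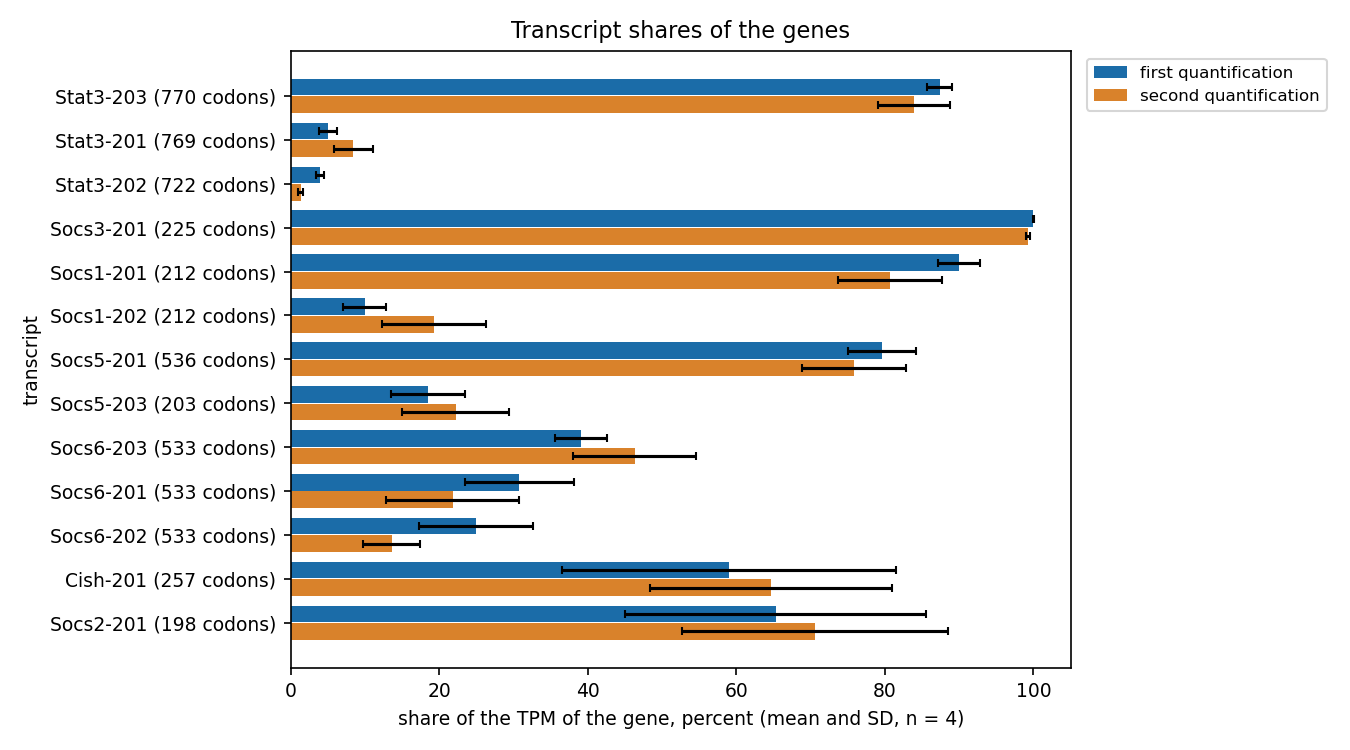
Mean share of each transcript in the TPM of its gene, in percent, with the SD over 4 libraries, for the first and the second quantification. Stat3-203 and Socs3-201 dominate in both, and the bars of Cish and Socs2 have the widest errors. For Socs6 the 3 leading transcripts of the first quantification are shown.

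All 9 members had a lower mean TPM in the second quantification than in the first. The difference, second minus first, was tested by limma on log2(TPM + 0.1) within libraries. Of 12300 genes 1289 (10.5%) were called, at an adjusted p of at most 0.05 and a difference of at least 1, and of the 8 members tested 0 were. Socs2 was too low to enter the test. Socs3 moved most, by -0.40 with a standard error of 0.14 and a limma adjusted p of 0.0483, which is under the difference asked for. The other members moved by -0.06 to -0.33, beside a median of -0.31 over all genes detected in each library. That median was -0.44 and -0.62 in replicates 1 and 2 and -0.05 and -0.15 in replicates 3 and 4, so it was larger in size in the pair with more Socs1, and its part in that difference was not tested. The second quantification gave Socs1 6.69, 4.28, 2.26 and 1.81 TPM, so replicates 1 and 2 stayed above replicates 3 and 4.

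The genes around the family are described from 8 lists of 105 entries, chosen for their roles, with Il4ra in 2 lists. The lists were chosen with earlier results of these data known, so their shares of variable genes are description and test nothing. Of 22 JAK-STAT ligands 9 were detected at 1 TPM in each library, and of the 10 tested 4 were called variable by edgeR (Il10, Il6, Ifnb1 and Csf1), where 2.61% of all genes were. Ebi3, a subunit of IL-27 and IL-35, was the most abundant ligand gene at 256 ± 13.7 TPM (SD, n = 4). Il15, which signals through the common gamma chain, had 146 ± 26.9 TPM (SD, n = 4).

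Il10, the main STAT3-activating cytokine of macrophages, had 158, 75.0, 45.0 and 251 TPM (edgeR adjusted p 5.24e-09). Replicates 3 and 4 held its lowest and highest values, as they did for Socs3, Zfp36, Fos and Irs2. They did not for Stat3, Il6, Nfil3, Junb, Ccnd1 or Il1rn, and the share of all genes with this pattern was not counted. In replicates 1 and 2 Il10 fell from 158 to 75.0 TPM, whereas Socs3 had 430 and 473 TPM. Socs3 was not called variable, and a link between Il10 and Socs3 was not tested. Il6, which also signals through STAT3, had 26.8, 68.2, 7.04 and 50.7 TPM (edgeR adjusted p 1.29e-09), with its lowest value in replicate 3 too. Ifnb1, which encodes interferon beta, had 50.8, 28.0, 11.4 and 17.3 TPM (edgeR adjusted p 0.00233). Like Socs1, Ifnb1 had more TPM in replicates 1 and 2 than in replicates 3 and 4. Il15 did too, by less, with 154 and 176 against 144 and 111 TPM, and was not called variable. On the scale of CPM rather than TPM, 38.6% of all genes did not overlap between these pairs, in either direction. Csf1, the macrophage growth factor, had 22.2, 71.3, 27.0 and 62.9 TPM (edgeR adjusted p 0.00100).

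Most receptor chains and all kinases were detected. Of 28 receptor chains 21 were detected and 0 of 22 tested were variable, beside 2.61% of all tested genes, with Il2rg at 490 ± 106, Csf1r at 357 ± 43.1 and Il10rb at 299 ± 18.7 TPM (SD, n = 4) the highest. Il10ra, the ligand-binding chain for IL-10, had 141 to 187 TPM, and Il6st, which encodes gp130, had 11.8 to 23.3 TPM. All 4 kinases were detected and 0 were variable, with Jak1 at 80.5 ± 4.73, Tyk2 at 57.8 ± 13.7 and Jak2 at 56.7 ± 13.5 TPM (SD, n = 4). Of the other STATs 5 of 6 were detected and 0 were variable. Stat2, which acts in type I interferon signalling, had 371 ± 32.9 TPM (SD, n = 4) and lay above Stat3 in each library, and Stat6, the STAT of IL-4, had 90.6 ± 6.40 TPM (SD, n = 4).

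The partners of the SOCS box were all present. All 9 listed ubiquitin ligase partners were detected, with a median of 84.1 TPM, and 0 were variable. Elob, which encodes elongin B, had 255 ± 31.2 TPM and Eloc, which encodes elongin C, 145 ± 38.3 TPM (SD, n = 4). Nedd8, the modifier that activates cullins, had 137 ± 6.66 TPM (SD, n = 4). Cul5, the cullin of the SOCS box ligase, was the lowest of the 9, with 8.19 to 12.6 TPM. Of the 11 other inhibitors of the pathway all were detected and 0 were variable. Usp18, a brake on the type I interferon receptor, had 408 ± 128 TPM, Ptpn6, the phosphatase SHP-1, had 336 ± 22.2 TPM, and Ptprc, the phosphatase CD45, had 227 ± 40.7 TPM (SD, n = 4).

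All 15 genes reported as STAT3 targets in macrophages were detected, and 4 of 15 were variable between libraries, where 2.61% of all tested genes were. Nfil3, a repressor downstream of IL-10, had 9.64, 22.1, 16.1 and 34.6 TPM (edgeR adjusted p 0.0106). Il1rn, which encodes the IL-1 receptor antagonist, had 583, 232, 287 and 185 TPM (edgeR adjusted p 0.00179). Ccnd1, a cyclin of the cell cycle, had 150, 32.9, 37.1 and 36.4 TPM (edgeR adjusted p 3.23e-10). Both were highest in replicate 1, whereas Nfil3 was lowest there.

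Fos, an immediate-early transcription factor, had 69.6, 56.4, 50.0 and 128 TPM (edgeR adjusted p 0.0169). The 3 most abundant genes of the list, Zfp36 (959 ± 332 TPM), Junb (613 ± 198 TPM) and Mcl1 (432 ± 27.6 TPM; SD, n = 4), were not called variable. Zfp36, which encodes the mRNA decay factor tristetraprolin, and Junb both had their lowest value in replicate 3, at 542 and 351 TPM. Of 10 reported SOCS substrates and interactors 6 were detected, and 1 of 7 tested was variable. That gene was Irs2, an insulin receptor substrate, with 2.50, 3.08, 1.23 and 5.52 TPM (edgeR adjusted p 0.00718), lowest in replicate 3 and highest in replicate 4. The highest of this list were Rela (63.1 ± 7.37 TPM), Irak1 (28.1 ± 1.91 TPM) and Traf6 (9.11 ± 1.08 TPM; SD, n = 4), which act in TLR signalling.

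**Figure D5:**
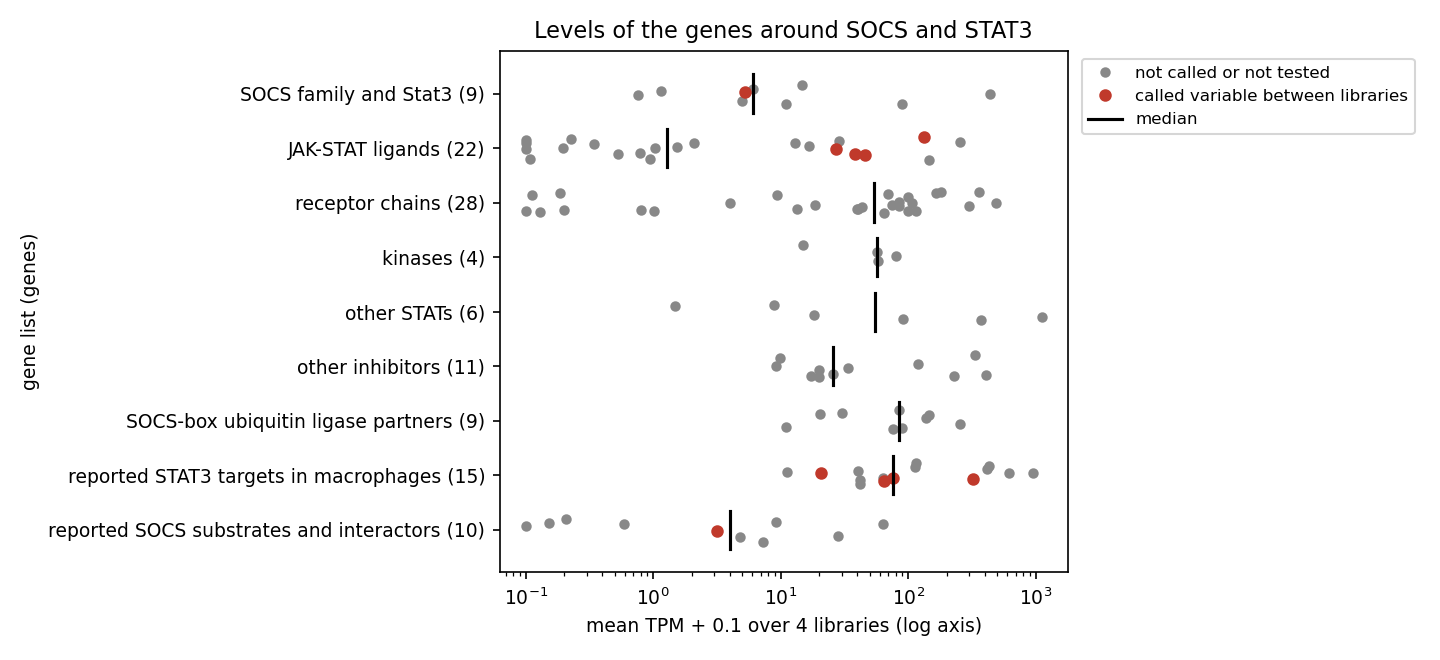
Mean TPM + 0.1 over 4 libraries (log axis) of the genes of each list, with the median as a vertical line and genes called variable between libraries by edgeR in red. The SOCS family and Stat3 have a median of 5.93 TPM, and red points lie among the ligands, the reported STAT3 targets and the substrates, with Socs1 the red member.

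The genes whose pattern over the 4 libraries lay closest to that of Socs1, by the root mean square distance of log2 CPM centred on each gene, were Gm10645 (0.111), Gpr31a (0.115) and Gm5637 (0.128), of 11678 compared. Gm10645 had 8.12, 5.53, 1.92 and 1.96 CPM and Gpr31a, a G protein-coupled receptor gene, had 7.20, 5.28, 1.81 and 1.68 CPM. For Cish, the member with the next largest SD of log2 CPM, the closest were AC167363.2 (0.0233), Tle6 (0.0281) and Lyplal1 (0.0456). These all had few counts, with Tle6, a transcriptional corepressor gene, at 1.68, 2.09, 2.08 and 3.42 CPM. With 4 libraries a close pattern is a description and carries no test.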

How the data were processed

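The members, lists and tests were chosen with earlier results of these data known. The authors' tables name the assembly mm10 and GENCODE M21, per the file headers of the deposited records, and the programs are not given in the sources used here. The first quantification holds a deposited expected count and TPM per gene and transcript, and the authors' isoform share in percent, each from transcriptome alignments. A second transcript table, made from the reads, gives TPM and was summed per gene. Expected counts were rounded and fitted with edgeR 4.0.16 in R 4.3.3, after filterByExpr and TMM normalisation. Variability was the deviance of an intercept-only fit against the trended dispersion (3 degrees of freedom; common biological coefficient of variation 22.4%). The read-file split used edgeR's quasi-likelihood test and DESeq2 1.42.0, and the quantifications limma 3.58.1. All p-values were adjusted by Benjamini-Hochberg over all tested genes at 0.05, except the exact sign-flip tests (8 pairs). Summaries used Python 3.11.15 with numpy 2.4.6, pandas 2.3.3 and scipy 1.17.1. The fits were also run on simulated data. The simulated counts had no scatter of single genes around the trended dispersion, so they do not give the rate of false calls in these libraries.

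Where a gene has no count, the limit is 3 counts (0.0724 to 0.129 CPM, depending on the library), for counting error only, since reads without molecular identifiers are not independent molecules. Named genes were the 9 members, the 3 most abundant and up to 5 variable genes of each list, and the 3 genes closest in pattern to Socs1 and Cish. One gene that this rule names is not reported here. Il10ra, Il6st and Cul5 were named after their values were seen. Alternatives were pseudocounts of 1 and 0.01, no filter on low values, DESeq2's scaling and test, the second table, a detection level of 5 TPM, and leaving out each library.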

Additional observations from a re-analysis of the deposited data

Results flagged for a closer look

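Of 50 sets of 4 library values examined, 2 held a library standing apart from the other three, where chance gives about 1 in 20. Ccnd1 had 150 TPM in replicate 1, against 32.9 to 37.1 TPM in the others. Nedd8 had 147 TPM in replicate 1, against 133 to 135 TPM in the others, a small difference for which edgeR's adjusted p for variability was 1.00. None of the 9 members had a single library standing apart in this way, and Socs1 was high in a pair of libraries.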

How the results depend on the processing

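Of 201 alternative values for 40 results, 179 stayed in place. Part of that count was fixed in advance. A member level or isoform share counted as in place within 1 SD. Dropping 1 of 4 libraries cannot move a mean that far. Leaving out each library gave 135 to 219 variable genes (135 without replicate 1) and 0 to 1 variable members, with 0 and an adjusted p of 0.0505 for Socs1 without replicate 1. The read-file split gave 103 genes with DESeq2, 35 with no filter and 0 to 13 leaving out each library (13 without replicate 2 and 2 without replicate 3), and for Socs1 log2 fold changes of -2.30 to -1.59. The quantifications differed for 2144 genes with no filter. Socs1 minus Socs5 reversed to 0.08 without replicate 3 and 0.14 without replicate 4 (range -0.62 to 0.14). The second table gave 75.1 TPM for Stat3, 9.34 for Socs4, 5.17 for Socs7 and 3.96 for Socs5, and shares of 99.3% for Socs3-201, 83.9% for Stat3-203, 46.3% for Socs6-203, 92.9% for Socs4-201, 89.1% for Socs7-201 and 80.7% for Socs1-201. The cause of these shifts was not tested. Depth limits Cish and Socs2 most. No paired analysis was possible because there is 1 group, so no replicate number could pair samples across groups. The sign-flip and quantification tests compare values within a library.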
